A study of Mus musculus with 12 samples.

Results

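Mice or cells with a single working copy of endoglin (Eng+/-) were compared with wild type (wt) at 50 days on 6 of the 12 two-colour expression arrays of the series. The 50 d arrays were picked by their titles and form 3 pairs of 1 Eng+/- and 1 wt array: a pair with no named treatment, a pair labelled clp and a pair labelled tpa. The labels do not spell out clp or tpa, and they give neither the age's starting point, nor the sex, nor how many animals or cultures stand behind an RNA. The titles write the genotype as "end +/-", read here as endoglin from the title of the series, and they call the wt array of the pair with no named treatment a pool. Each array carried its own sample in the Cy5 channel and, in the Cy3 channel, 1 common pool of all conditions. Every value below is therefore a log2 ratio of sample to pool, and a difference is the Eng+/- ratio minus the wt ratio of the same pair. The arrays of a pair lay on 1 slide, and each treatment had its own slide. The same pairs at 90 days fill the rest of the series.

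Endoglin is a co-receptor that binds ligands of the transforming growth factor β (TGF-β) and bone morphogenetic protein (BMP) family and passes them to type I receptors such as Acvrl1 and Tgfbr1. It is best known from blood vessel endothelium, and loss of a copy of the human gene causes hereditary haemorrhagic telangiectasia. In skin, BMP ligands hold the hair follicle at rest, and the BMP antagonist noggin helps it to enter growth. The growing follicle makes the hair shaft from hair keratins and keratin-associated proteins, and melanocytes colour it.

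The labels describe the material as E14 embryonic stem cells, and the arrays carried the transcripts of skin. All 23 epidermal marker genes with a probe were well above background in Cy5 on all 6 arrays, as were 8 of 9 type I hair keratins and all 27 skeletal muscle genes. Of 16 embryonic stem cell markers, 10 were above background on all 6. The Cy5 medians of the 6 arrays ran from 153 to 476 intensity units and differed within the clp pair, with 186 in Eng+/- and 476 in wt. Within a bulk RNA sample, fewer cells of a type and less RNA per cell cannot be told apart.

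Eng itself was lower in Eng+/- in 2 of the 3 pairs and higher in the third. Its log2 ratio was -1.43 in Eng+/- and -0.24 in wt with no named treatment, and 0.94 and 1.92 in the clp pair. In the tpa pair it was -0.49 in Eng+/- and -1.13 in wt. The differences were thus -1.19 (2.29-fold lower), -0.98 (1.97-fold lower) and 0.63 (higher), and wt clp was the highest of the 6 arrays. Over the 3 pairs the fitted difference was -0.51 ± 0.37 (SE, n = 3 arrays per genotype), with a limma p of 0.951 after Benjamini-Hochberg adjustment over all 25108 features. Without the tpa pair it was -1.09 ± 0.30, still short of a call. A single probe reports Eng, so the tpa arrays have no second probe to compare with. In the 90 d pairs the differences were -0.28, -1.61 and -1.16, each lower in Eng+/-.

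**Figure D1:**
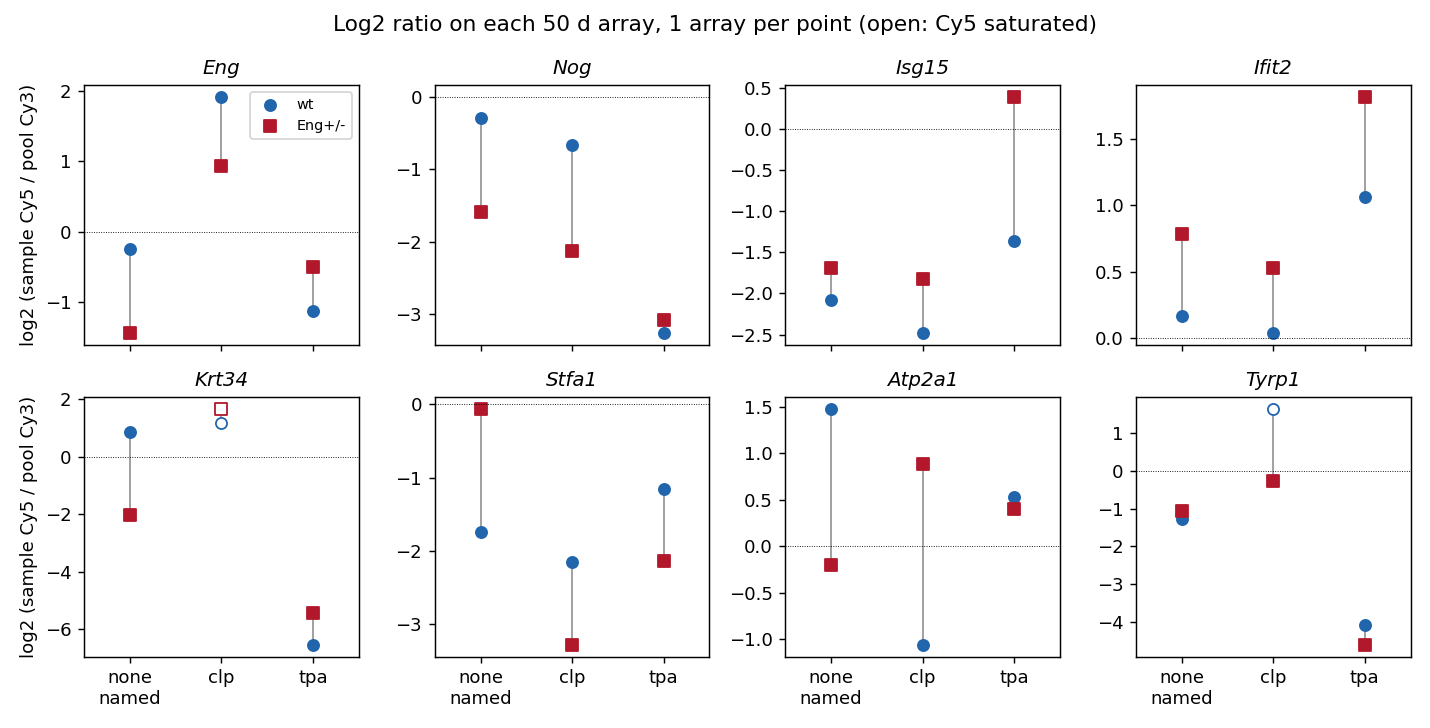
Log2 ratio of sample (Cy5) to common pool (Cy3) for 8 genes on the 6 arrays of 50 d; circles are wt, squares Eng+/-, a grey line joins a pair, and open symbols are saturated in Cy5. Eng lies lower in Eng+/- in the pairs with no named treatment and clp and higher in the tpa pair, and Isg15 and Ifit2 lie higher in Eng+/- in all 3.

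The receptors that endoglin works with showed no common shift. Of 14 TGF-β and BMP receptor genes tested, Eng included, 0 were called, and the list's median fitted difference was -0.05 against -0.03 over all features. Only Acvr2a, Bmpr2 and Rgma were lower in Eng+/- in all 3 pairs (the fitted Rgma turned with the authors' processed signals, under median centring, with quantile normalization and from Cy5 alone), and none was higher in all 3, against 18.3% and 10.1% of all features. Acvr2a, a type II activin receptor, differed by -0.53, -0.74 and -0.49 in the pairs with no named treatment, clp and tpa. Bmpr2, the type II BMP receptor, differed by -1.92, -0.36 and -0.60 (fitted -0.96 ± 0.58), but the first value was 0.019 with the authors' processed signals. Acvrl1, the type I receptor that partners endoglin in endothelium, differed by -0.61, 0.40 and 0.14. Tgfbr2 differed by -0.06, 0.58 and 0.03, and 2 probes of it disagreed in sign.

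Across all genes no difference between genotypes passed the test at 50 d. Of 25108 features, 0 (0%) were called at an adjusted p under 0.05 in limma, the smallest adjusted p being 0.951, and 687 (2.74%) had an unadjusted p under 0.05. Of these, 196 (0.781%) were higher and 491 (1.96%) lower in Eng+/-. This split depended on the scaling: 74 of 149 such features were higher under median centring and 253 of 555 from Cy5 alone. With 1 array per genotype and treatment, the spread comes from how far the pairs of a day disagree, pooled over 50 d and 90 d. An SE or p at 50 d therefore also reflects disagreement among the 90 d pairs. The pairs of 50 d shared little. Across features, the differences of the pair with no named treatment and the clp pair had a Pearson correlation of 0.00172. The clp and tpa pairs reached 0.0994, and the pairs with no named treatment and tpa 0.115. These are descriptions over genes, which are not independent, and all 6 arrays share the same pool.

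The size of the differences also varied between pairs. In the pair with no named treatment 127 features (0.506%) were at least 2-fold higher and 1015 (4.04%) at least 2-fold lower in Eng+/-. In the clp pair the counts were 325 (1.29%) and 137 (0.546%), and in the tpa pair 52 (0.207%) and 58 (0.231%). The tpa pair, in which Eng was not lower, thus had the smallest standard deviation of differences, 0.238 against 0.471 with no named treatment and 0.364 for clp. The split of higher to lower depended on the scaling: with no named treatment 11.1% of the 2-fold features were higher here, 51.5% after quantile normalization and 96.7% after median centring. In the clp pair 70.3% were higher here, 39.4% with the authors' processed signals and 29.1% after median centring. Median centring moved the median difference of all features to 0.56, -0.25 and 0.07 in the pairs with no named treatment, clp and tpa, so gene groups below are read against the rest of the same pair.

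**Figure D2:**
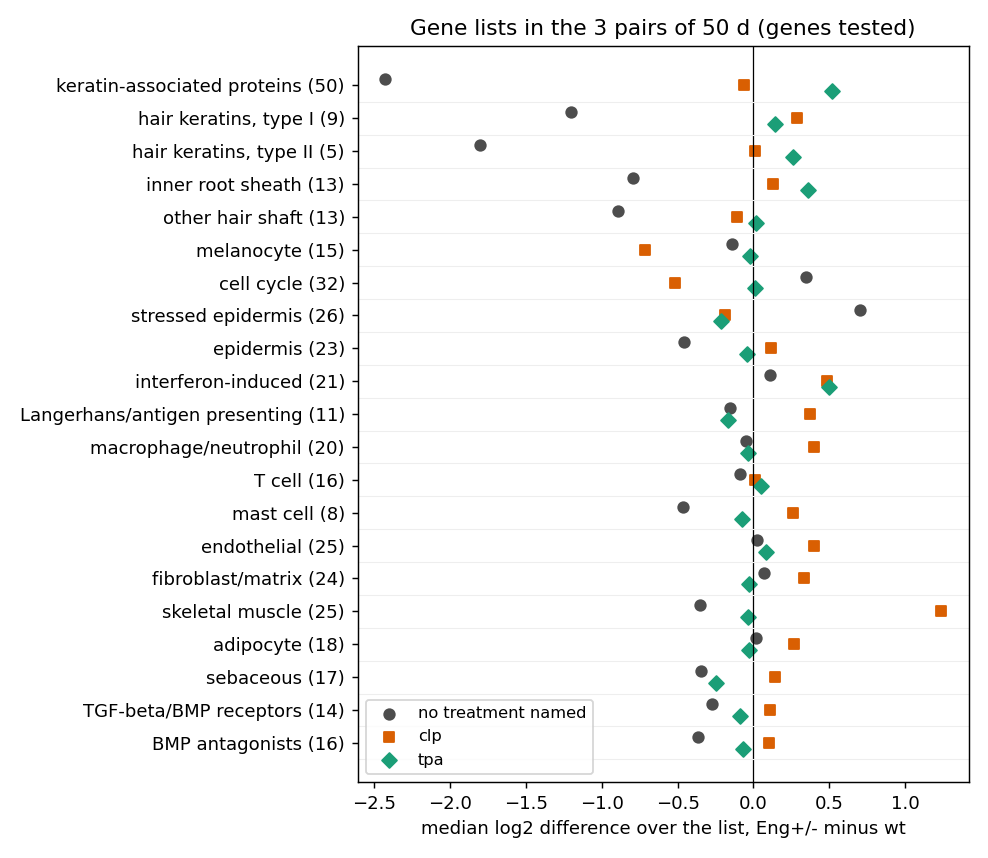
Median log2 difference (Eng+/- minus wt) of 21 gene lists in each pair of 50 d, with the number of genes tested in brackets. Keratin-associated proteins reach -2.42 with no named treatment and 0.52 in the tpa pair, and skeletal muscle stands at 1.23 in the clp pair.

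With no named treatment, the hair shaft programme was lower in Eng+/- and genes of stressed epidermis were higher. All 50 keratin-associated protein genes tested, which crosslink keratin in the hair shaft, were lower in Eng+/-, 49 of them at least 2-fold, with a median of -2.42 against -0.05 for all features. All 9 type I hair keratins (median -1.20) and all 5 type II hair keratins (median -1.80) were lower too, as were 9 of 13 inner root sheath genes. Many of these spots were saturated, 36 of the 50 keratin-associated genes on at least 1 of the 6 arrays. Krt34, a type I hair keratin measured without saturation in this pair, had a log2 ratio of -2.01 in Eng+/- and 0.86 in wt, a 7.30-fold lower level. Krt33b stood at -2.81 against 0.05, and Krt81, of type II, at -0.11 against 2.15. Both arrays nevertheless kept far more of these transcripts than the tpa arrays on another slide, where Krt34 was at -5.43 and -6.53.

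The stressed-epidermis list holds keratins, cornified envelope proteins and alarm proteins that wounded or inflamed epidermis makes. In the pair with no named treatment 21 of its 26 genes tested were higher in Eng+/- and 9 at least 2-fold (median 0.70). S100a9, a calprotectin subunit of neutrophils and stressed keratinocytes, had a log2 ratio of 0.69 in Eng+/- and -2.39 in wt, 8.46-fold higher. Its partner S100a8 stood at -0.69 against -2.64, and Stfa1, a stefin, at -0.06 against -1.74. The stress keratin Krt16 was at 1.74 against 0.31 and the cytokine Il19 at 1.59 against 0.11. Krt6b was furthest apart, 2.62 against -0.81, but its second probe went the other way (-0.44). In the other pairs the same list had medians of -0.19 (clp) and -0.22 (tpa), and Stfa1 was lower in Eng+/- there, by -1.13 and -0.98.

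Cell cycle genes lay the same way: 25 of 32 were higher in Eng+/- with no named treatment (median 0.34), including the topoisomerase Top2a, at 1.70 in Eng+/- and 0.63 in wt. Shh, the hedgehog ligand of the growing follicle, was at 1.29 against 0.14. Of the immune lists, macrophage and neutrophil genes had a median of -0.05, with 9 of 20 higher and 11 lower in Eng+/-. T cell genes had a median of -0.09 and mast cell genes -0.46. Whether other cells took part in the S100 values was not tested. Outside the lists, the genes furthest apart in this pair were near the limits of the scanner. Snhg7, a non-coding RNA, had a log2 ratio of -1.78 in Eng+/- and 2.33 in wt, where its spot was saturated. Chchd2 stood at 3.15 in Eng+/-, Defb19 at 2.28 and BC048562 at 2.27, and none of these genes was well above background in wt, so the sizes of these differences are not settled. The 5 furthest lower genes were otherwise keratin-associated: Krtap9-3 (-3.22), Krtap4-2 (-3.17), Krtap22-2 (-2.99) and Krtap3-1 (-2.95).

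**Figure D3:**
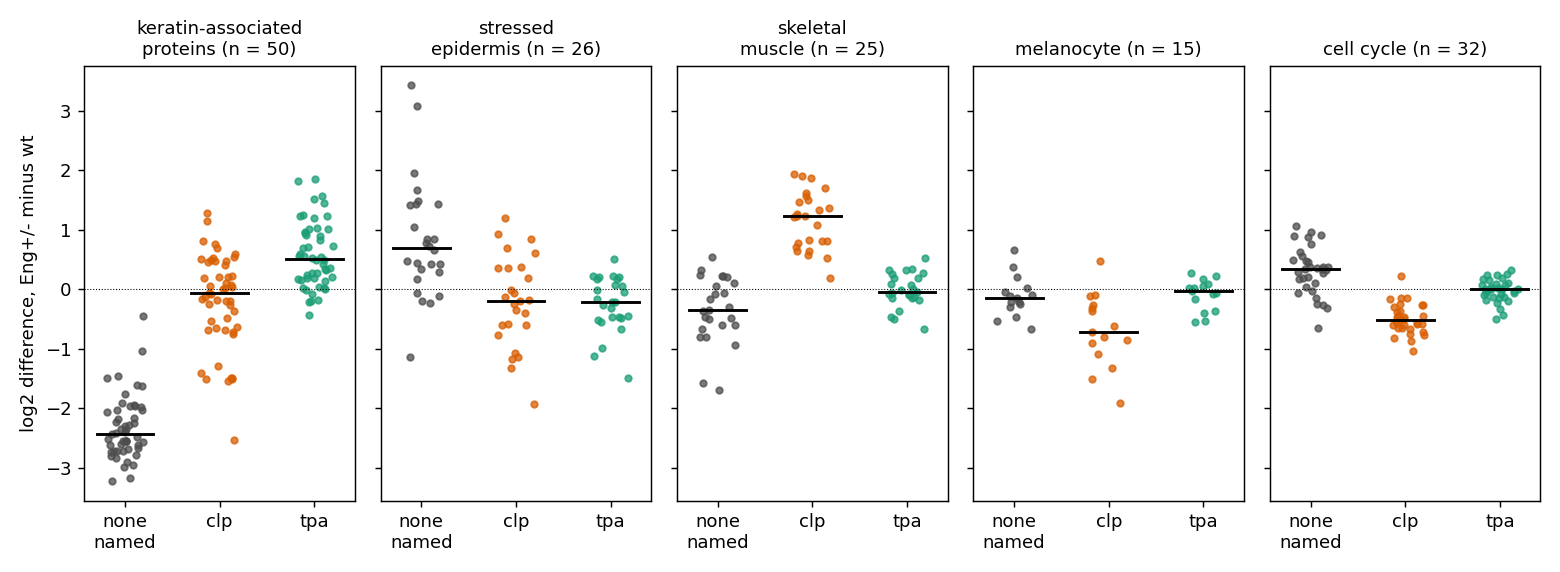
Log2 difference (Eng+/- minus wt) of every gene tested in 5 lists, by pair; each point is 1 gene and the black bar the median. Keratin-associated genes all lie below 0 with no named treatment, skeletal muscle genes all lie above 0 in the clp pair, and cell cycle genes stand on opposite sides in these pairs, at medians of 0.34 and -0.52.

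In the clp pair the ratios of the hair shaft genes gave no common direction, and muscle, matrix and pigment genes stood out instead. Many hair spots were saturated on both clp arrays, such as Krt34 and Krtap9-3, or in wt alone, such as Krt33b and Krt81. The direction of such genes is not settled in this pair. All 25 skeletal muscle genes tested were higher in Eng+/-, 15 of them at least 2-fold (median 1.23 against -0.04 for all features). The calcium pump Atp2a1 had a log2 ratio of 0.89 in Eng+/- and -1.06 in wt, 3.85-fold higher. Creatine kinase Ckm stood at 1.32 against -0.58, myoglobin (Mb) at 1.14 against -0.72 and desmin (Des) at 0.26 against -1.51. With no named treatment the muscle list pointed the other way, with 17 of 25 lower in Eng+/- (median -0.35), and Atp2a1 was -0.21 in Eng+/- and 1.48 in wt. In the tpa pair the median was -0.04. Saturation touched 12 of the 25 genes.

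Genes of other tissue parts were higher with the muscle genes in the clp pair. Globin and other red cell genes were higher in 5 of 5 cases (median 1.43), although the near-identical globin copies share probe sequence. Matrix genes of fibroblasts were higher in 22 of 24 cases, such as Thbs1 by 1.33, Dpt by 1.24 and Pdgfrb by 1.12. Antigen presentation genes were higher in 11 of 11 cases, led by the cathepsin Ctss (1.23), the invariant chain Cd74 (1.13) and H2-Aa (1.11). Endothelial genes were higher in 19 of 25 cases, while Eng, a member of that list too, was lower. How much of each tissue went into each RNA was not tested.

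Pigment and division genes were lower in the same pair. Of 15 melanocyte genes, 14 were lower in Eng+/- (median -0.72), Trpm1 being the exception. Oca2, a melanosome transporter, had a log2 ratio of 1.05 in Eng+/- and 2.56 in wt, and tyrosinase (Tyr) -0.13 against 1.19. Tyrp1 stood at -0.27 against 1.63, with a saturated wt spot. Of 32 cell cycle genes 31 were lower (median -0.52), with the proliferation marker Mki67 at 1.09 against 2.13. Neither list did so in the tpa pair, with medians of -0.02 and 0.01, and the cell cycle list stood the other way with no named treatment.

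The single genes furthest apart in the clp pair were mixed. The erythropoietin receptor Epor (2.83), the cytokine Il6 (2.82), Pifo (2.74), the protease Mmp11 (2.63) and Tdrd5 (2.48) were higher in Eng+/-. For Epor, Il6, Pifo and Tdrd5 the wt clp array alone was low against the pool, between -2.01 and -3.04, while the other 5 arrays lay between -0.46 and 0.68. In Cy5 itself Il6 and Tdrd5 were above background in wt and not in Eng+/-. From the Cy5 channel alone Il6, Pifo and Tdrd5 were lower in Eng+/-, so no direction is settled for them. On the lower side were Krtap31-2 (-2.53, with a saturated wt spot), Cyp2g1 (-2.34), Xist, Mettl23 (-1.94) and Il1f6 (-1.93), an interleukin 36 cytokine of epidermis that was 1.04 higher with no named treatment.

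The tpa pair differed least. Hair genes were low on both of its arrays and slightly higher in Eng+/-: 44 of 50 keratin-associated genes were higher, 12 at least 2-fold (median 0.52), and 11 of 13 inner root sheath genes (median 0.36). Krt27, an inner root sheath keratin, had a log2 ratio of -4.86 in Eng+/- and -6.34 in wt. Krt33a stood at -5.75 against -8.35, Tchh (trichohyalin) at -5.22 against -7.11 and Krtap9-3 at -6.54 against -8.39. These 3 were among the 5 furthest higher, as was Slc35f3 (1.99), whose direction turned from Cy5 alone. Krtap9-3 differed by 1.85 here and by -3.22 with no named treatment, so the hair genes of these pairs stood in opposite directions. Furthest lower were Irf2bp2 (-1.63), Rbfox2 (-1.52), Sprr1b (-1.50), a cornified envelope protein, Rnd3 (-1.33) and the RNA helicase Ddx6 (-1.26). A second probe of Rbfox2 differed by -0.12. Lyve1, a lymphatic vessel receptor, was 1.34 higher, at 0.88 in Eng+/- and -0.45 in wt.

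Of 21 interferon-induced genes tested, 13 (61.9%) were higher in Eng+/- in all 3 pairs and 0 lower in all 3, against 10.1% and 18.3% of all features. Interferons are antiviral cytokines that switch on antiviral genes, many of them through a short element in their promoters. The list's medians were 0.11, 0.48 and 0.50 with no named treatment, clp and tpa, and with no named treatment 8 of the 21 were lower in Eng+/-. In limma 0 of the 21 were called after adjustment, and 6 had an unadjusted p under 0.05 in the higher direction. The count of genes higher in all 3 pairs stayed between 13 and 16 of 21 under each of the 5 other scalings, and none was lower in all 3 under any of them.

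Promoters of 3 of these genes are shown for the letters of the interferon-stimulated response element, a match being GAAANNGAAA read on either strand. All 3 have a match, and their genes were higher in Eng+/- in every pair by the brightest probe. Ifit2, Oasl1, Oasl2, Irf1 and Irf7 were also higher in every pair, and their promoters had no match. Each promoter shown is the stretch of 250 bases before the gene's start in RefSeq (GRCm38.p6), with matches in capitals. That of Isg15 is chr4:156200819-156201068 on the minus strand and has 3 overlapping matches. Those of Ifit3 (chr19:34583279-34583528, plus strand) and Rsad2 (chr12:26456453-26456702, minus strand) have 2 and 1.
Isg15: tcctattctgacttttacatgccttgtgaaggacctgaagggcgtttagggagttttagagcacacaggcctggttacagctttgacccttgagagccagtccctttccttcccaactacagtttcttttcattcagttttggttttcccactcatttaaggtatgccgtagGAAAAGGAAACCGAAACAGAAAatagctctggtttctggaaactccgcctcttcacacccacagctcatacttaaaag
Ifit3: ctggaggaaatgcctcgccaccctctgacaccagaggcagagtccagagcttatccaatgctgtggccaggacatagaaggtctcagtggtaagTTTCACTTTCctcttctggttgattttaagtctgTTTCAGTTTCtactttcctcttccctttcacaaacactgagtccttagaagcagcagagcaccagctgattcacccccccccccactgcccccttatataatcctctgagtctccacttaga
Rsad2: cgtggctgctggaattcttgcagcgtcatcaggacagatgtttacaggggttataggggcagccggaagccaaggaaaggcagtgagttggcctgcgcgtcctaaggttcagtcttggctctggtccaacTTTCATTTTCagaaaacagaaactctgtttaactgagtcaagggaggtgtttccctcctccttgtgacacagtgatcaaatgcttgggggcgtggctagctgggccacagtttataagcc
Of the 13 genes higher in all pairs, 10 had a promoter in the RefSeq table and 5 of them a match (50.0%). Over the list, 11 of 18 matched (61.1%), and 936 of 27025 genes did so overall (3.46%). A match is a run of letters and not a shown binding site.

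Isg15, a ubiquitin-like protein, had log2 ratios of -1.69 in Eng+/- and -2.08 in wt with no named treatment, -1.82 and -2.48 in the clp pair, and 0.40 and -1.36 in the tpa pair. Its differences were 0.39, 0.66 and 1.75, and the fitted one 0.93 ± 0.39 (adjusted p 0.951). A second, dimmer Isg15 probe gave -0.62, 0.03 and 0.93, so its direction with no named treatment depended on the probe. Ifit2, which blocks viral translation, stood at 0.79 against 0.17, 0.53 against 0.04, and 1.82 against 1.07 in the same order, a fitted difference of 0.62 ± 0.17. It was higher in Eng+/- in each pair, while wt tpa exceeded both Eng+/- arrays of the other pairs. Bst2 (tetherin) differed by 0.49, 0.42 and 0.59, and Oasl2, an oligoadenylate synthetase-like protein, by 0.45, 0.67 and 0.51. Rsad2 (viperin) differed by 0.33, 0.55 and 0.70, Oas1a by 0.24, 0.57 and 0.85, and Oasl1 by 0.22, 0.48 and 0.61. A second Oas1a probe gave 0.47, -0.49 and 0.46, so its direction in the clp pair depended on the probe. Ifit3 differed by 0.19, 0.65 and 0.59. Of the regulators, Irf7 differed by 0.11, 0.30 and 0.34, Irf1 by 0.06, 0.78 and 0.28, and Usp18 by 0.01, 0.72 and 0.50. Ifit1 was not among the 13, with -0.40, 0.23 and 0.63.

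**Figure D4:**
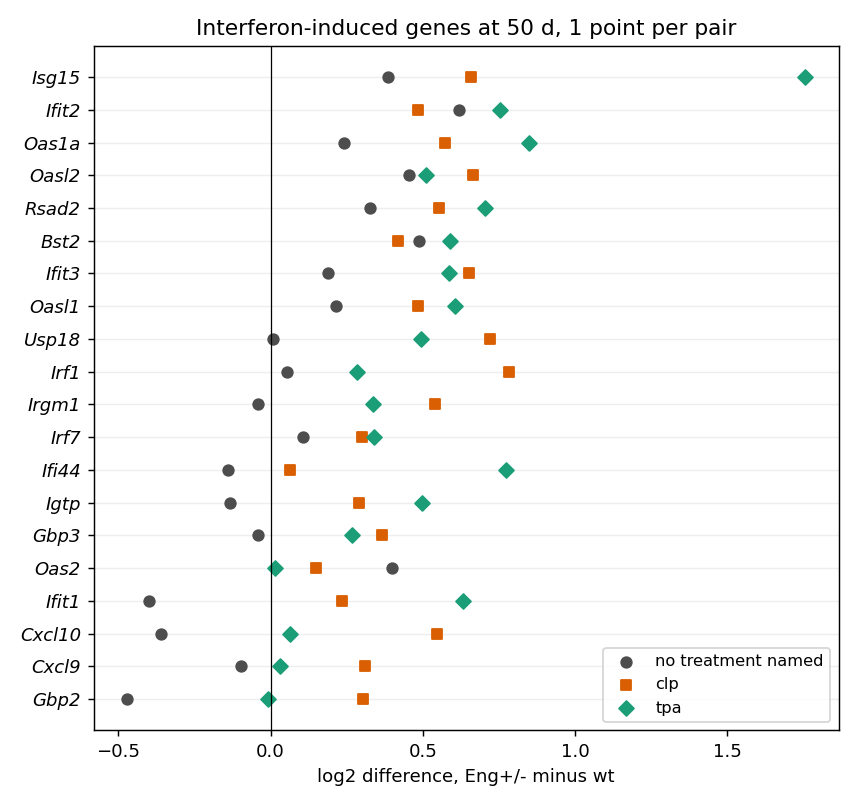
Log2 difference (Eng+/- minus wt) of 20 of the 21 interferon-induced genes tested, 1 point per pair, ordered by their mean. Isg15 reaches 1.75 in the tpa pair, and with no named treatment 8 genes lie below 0.

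Chemokine and phagocyte genes gave single members of the same kind. Ccl7, a monocyte chemokine, differed by 0.12, 0.54 and 0.89, and the Fc receptor Fcgr1 by 0.38, 0.31 and 0.71. Of 31 chemokine-list genes 5 were higher and 3 lower in all pairs (16.1% and 9.68%), and of 20 macrophage and neutrophil genes 4 and 1 (20% and 5%), against 10.1% and 18.3% of all features. Whether a change in these cells accompanies the interferon genes was not tested.

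Noggin, the BMP antagonist of the hair follicle, was lower in Eng+/- in the same 2 pairs as Eng. Its log2 ratio was -1.59 in Eng+/- and -0.30 in wt with no named treatment, and -2.13 and -0.67 in the clp pair. In the tpa pair it was -3.07 and -3.25, the lowest of the 6 arrays in both genotypes and nearly equal between them. The fitted difference was -0.85 ± 0.34 (limma adjusted p 0.951), and -1.37 ± 0.27 without the tpa pair. It was -0.556 ± 0.416 without the clp pair and -0.635 ± 0.415 without the pair with no named treatment. At 90 d Nog was lower in Eng+/- in all 3 pairs, by -1.91, -1.61 and -1.94. Of the other BMP antagonists, Sostdc1 (-0.62, -0.14 and -0.37) and chordin (Chrd, -0.53, -0.20 and -0.07, with a fitted value that turned from Cy5 alone) were lower in all pairs. A second Sostdc1 probe gave 0.36, -0.28 and -0.45, higher in Eng+/- with no named treatment. The ligand Bmp4 differed by -0.23, -0.28 and -0.13 and the target Id1 by 0.42, -0.25 and -0.23. A second Bmp4 probe gave 0.20, -0.09 and 0.09, so the sign of its fitted difference depended on the probe. Of 16 BMP and TGF-β target genes tested 1 was higher and 1 lower in all pairs (6.25% each), against 10.1% and 18.3% of all features.

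Noggin was 1 of 33 features (0.131%) at least 2-fold lower in both of these pairs, and 4 (0.0159%) were at least 2-fold higher in both. Prss28, a tryptase-family protease, differed by -1.08 and -1.24 (fitted -0.82 ± 0.21), and in the tpa pair by -0.14. The kinase Camk2a differed by -1.31 and -1.43, Selenov by -1.07 and -1.45, and Grifin by -1.58 and -1.15. Among keratin-associated genes were Krtap15 and Krtap31-1, at -2.07 and -1.29, and -2.43 and -1.51. Mageh1 was on the higher side, by 1.13 and 1.04, and by 0.17 in the tpa pair. These genes were named after their values were seen. No feature was at least 2-fold higher in all 3 pairs and none at least 2-fold lower (0% each).

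Some hair follicle genes, among them inhibitors of Wnt and hedgehog signals, were lower in Eng+/- in all 3 pairs. Lef1, the Wnt transcription factor of the hair matrix, differed by -0.53, -0.62 and -0.19 (fitted -0.45 ± 0.14). Of 15 hair matrix transcription factors 5 (33.3%) were lower and 0 higher in all pairs, against 18.3% and 10.1% of all features, but 1 was lower under median centring, where 5.46% of all features were, and 2 with quantile normalization. Ptgds, a prostaglandin D2 synthase, differed by -0.65, -0.74 and -0.35, and the hedgehog inhibitor Hhip by -0.87, -1.18 and -0.44. A second Hhip probe gave 0.36, -0.82 and -0.10, so its direction with no named treatment depended on the probe. Wif1, a Wnt inhibitor of the dermal papilla, differed by -0.68, -0.91 and -0.28. The hair cuticle keratin Krt82 differed by -1.27, -0.65 and -0.17 and the desmosomal cadherin Dsg4 by -1.22, -0.82 and -0.16, but Dsg4 was not well above background in Eng+/- with no named treatment. Of the 50 keratin-associated genes 5 (10%) were lower in all pairs.

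Signalling and tissue lists beside the hair shaft gave smaller shifts. Of 29 Wnt pathway genes 7 (24.1%) were lower and 0 higher in all pairs, beside 18.3% and 10.1% of all features, and median centring turned this to 0 lower and 3 higher and quantile normalization to 3 lower and 1 higher. The Wnt receptor Fzd1 differed by -0.25, -0.36 and -0.58. Of 10 hedgehog genes 4 were lower and 1 higher in all pairs (40% and 10%, beside 18.3% and 10.1% of all features). Only 1 was lower with the authors' processed signals and with quantile normalization. The hedgehog transcription factor Gli3 differed by -0.14, -0.74 and -0.23. Fgf10, a growth factor of the dermis, differed by -0.22, -0.35 and -0.28. Of 25 endothelial genes 7 were higher and 4 lower in all pairs (28% and 16%, beside 10.1% and 18.3% of all features), and 11 and 0 under median centring. With quantile normalization 4 were higher and 3 lower (16% higher, beside 11% of all features). From Cy5 alone 4 were higher and 1 lower (16% higher, beside 14.7%), so the excess of higher genes depended on the scaling. Sox17, an arterial transcription factor, differed by 0.28, 0.53 and 0.44 (fitted 0.42 ± 0.17), while the receptor Kdr differed by -0.68, -0.13 and -0.83. A second Sox17 probe gave 0.69, -0.03 and -0.002, and a second Kdr probe -0.50, 0.06 and -0.01. For both genes the clp and tpa differences thus depended on the probe. Epidermal genes had medians of -0.46, 0.12 and -0.04, and 16 of 23 were lower with no named treatment. Sebaceous gland genes were lower in 13 of 17 cases with no named treatment and in the tpa pair, with the desaturase Fads2 at -1.15, -0.55 and -0.02. Of 18 adipocyte genes 5 were higher and 2 lower in all pairs (27.8% and 11.1%, beside 10.1% and 18.3%), but 1 was higher and 4 lower with quantile normalization. The lipid droplet protein gene Plin1 differed by 0.09, 0.74 and 0.16.

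Ranked by the smallest of the 3 pair differences, the genes most apart in the same direction were named by rule. On the higher side these were Isg15, Ifit2, Bst2, Oasl2, Hbb-b2, Calml4, Kcnq5, Mest, Spon2 and Sult1e1. The smallest p on this side belonged to Sult1e1, an oestrogen sulfotransferase (0.60, 0.42 and 0.43; fitted 0.48 ± 0.11), and to Ppp1r27, a phosphatase regulator of muscle (0.73, 0.98 and 0.27; 0.66 ± 0.15). Sult1e1 and Ppp1r27 were higher in Eng+/- in all 3 pairs of 90 d as well. Next came carbonic anhydrase Car2 (0.52, 0.57 and 0.26, fitted 0.45 ± 0.11), C1qtnf2 (0.79, 1.06 and 0.21, fitted 0.69 ± 0.18) and Ambn. Ambn was not well above background on any array of the pair with no named treatment. In the clp and tpa pairs it was well above background in wt only. Its fitted direction turned from Cy5 alone (-0.17), so no direction is settled for it. Mest, an imprinted gene, differed by 0.79, 0.38 and 0.63. Other Mest probes gave -0.07, 0.18 and 0.42, and -0.25, 0.13 and 0.24, so its direction with no named treatment depended on the probe.

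On the lower side the rule named H1f5, H1f4, H4c4, H4f16, Xist, Sun5, Syne4, Zmiz2, Snx27 and Gfra4. Other Gfra4 probes lay near 0, at 0.05, -0.08 and -0.005, and at 0.19, 0.01 and 0.008. A second Snx27 probe was lower by less, at -0.15, -0.11 and -0.13. H1f5, a linker histone, differed by -1.76, -1.46 and -0.91 (fitted -1.38 ± 0.74), and its log2 ratio lay between -5.90 and -0.93 on the 6 arrays, below the pool on each. Histone copies are near-identical, and of 41 histone genes tested, a list added after the values were seen, 16 (39%) were lower and 0 higher in all pairs, beside 18.3% and 10.1% of all features. With the authors' processed signals 6 were lower and 1 higher, and from Cy5 alone 8 were lower and 6 higher, so this count depends on the scaling and the channel. Sun5 (-1.29, -0.78 and -1.05) and Syne4 (-1.19, -0.75 and -0.92) turned direction from Cy5 alone. The smallest p belonged to Serpina10 (-0.69, -0.83 and -0.61; fitted -0.71 ± 0.17), followed by I730030J21Rik, Prss28, the phospholipase Pla2g10 (-1.13, -0.87 and -0.14) and Bard1. Bard1, a DNA repair partner of Brca1, differed by -0.58, -0.92 and -0.51 and also turned from Cy5 alone. Other Bard1 probes gave -0.06, -0.18 and -0.15, and 0.43, -0.41 and 0.02, so the sign of its fitted difference depended on the probe.

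Xist, the RNA that silences an X chromosome in females, was lower in Eng+/- in all 3 pairs. Its log2 ratio was -1.80 against -1.06 with no named treatment and -1.67 against -0.71 in the tpa pair. In the clp pair it was -3.41 against -1.16, but not well above background in Eng+/-. A second Xist probe was also lower in Eng+/- in all 3 pairs. It differed by -1.35 with no named treatment, and by less in the clp (-0.29) and tpa (-0.19) pairs. The Y-linked Eif2s3y was higher in Eng+/- in all 3, by 0.25, 0.52 and 0.74, while Ddx3y differed by -0.26, 0.42 and 0.59, and 3 of 4 Y-linked genes were above background on all 6 arrays. The labels give no sex, and sex and genotype cannot be told apart here.

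Set against the 90 d pairs, the genotype difference was not called different for any feature. The smallest adjusted p for 50 d against 90 d was 0.896 (limma, 0 called, 0%), and 1048 features (4.17%) had an unadjusted p under 0.05. Both days share the pool and the estimate of spread. The keratin-associated genes had 90 d medians of -6.04, -1.87 and -2.25 with no named treatment, clp and tpa, beside -2.42, -0.06 and 0.52 at 50 d. Skeletal muscle had 0.52, 1.40 and 0.55, beside -0.35, 1.23 and -0.04. Interferon-induced genes had -0.56, 0.18 and -0.21, beside 0.11, 0.48 and 0.50. The smallest p for the difference between days belonged, on the side higher at 50 d, to Elf5, H2bc6, Mecom, Crisp1 and Krtap24-1, all lower in Eng+/- in the 3 pairs of 90 d. On the other side were Acss2, Slc4a8, Lce1c, Lce1l and 2310050C09Rik, which were higher in Eng+/- in the 3 pairs of 90 d. Mecom, for example, differed by -0.89, -0.72 and 0.22 at 50 d and by -1.89, -2.53 and -2.36 at 90 d. Lce1l, a late cornified envelope gene, differed by -0.66, -0.60 and 0.28 at 50 d and by 1.49, 1.71 and 0.55 at 90 d.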

How the data were processed

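Expression was measured on Agilent two-colour 4x44K arrays. Per the file headers, the authors deposited spot intensity from Feature Extraction 10.7.3.1 (version 10.0 per the submitters' processing notes, 10.1 in the series text), probe annotation build mm9. The deposited log10 ratio equals the series' value table and, with the processed signals, served as an alternative. No mean signal is in the files, so median spot and background intensities of the deposited files were used, with normexp correction (offset 50) and loess within each array (limma 3.58.1, R 4.3.3). Of 44397 spots, controls were left out, 43020 remained, and outlier flags were removed. Probes well above background in Cy5 on at least 2 of 12 arrays were tested (30523), the brightest probe standing for a gene (25108 features, 17189 with a symbol). Limma was fitted to all 12 arrays with 6 age and treatment blocks and genotype within each day, leaving 4 residual degrees of freedom, with trended empirical Bayes and a two-sided adjusted p under 0.05. The pairs are the blocks, so within-slide values are the pair differences. There are 3 pairs at 50 d and no replicate array of any condition. The p-values measure the spread between the pairs of a day, pooled over both days, and array number limits precision. The script was tested on simulated data.

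The genes named are the 10 in each direction with the largest smallest pair difference, the 5 with the smallest p in each direction, Eng and the receptors, up to 3 members per list with 1 sign in all pairs, the 5 furthest apart in each pair, and the 5 in each direction for 50 d against 90 d; others were chosen after their values were seen. The members and gene lists were chosen with earlier results of these data known. Where a spot was saturated or not well above background on 1 array of a pair, the log2 ratios are given with that fact and no fold. Alternatives were the processed signals, offset 0, median centring, quantile normalization, Cy5 alone, other probe filters, all probes, only the 6 arrays, leaving out each pair, and no trend. Promoter sequences are from RefSeq (GRCm38.p6). Some genes are not reported here.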

Additional observations from a re-analysis of the deposited data

Results flagged for a closer look

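In 16 genes, named by the rule or chosen after their values were seen, all 3 pairs of 50 d pointed one way and all 3 pairs of 90 d the other. The difference between days was fitted in limma and called for none (smallest adjusted p 0.896), and 182 of 25108 features (0.725%) lay higher at 50 d and lower at 90 d, and 282 (1.12%) the reverse. Positive values below mean that the Eng+/- minus wt difference was higher at 50 d. Of the interferon-induced genes, Isg15 differed between days by 1.98, Oasl1 by 1.29, Oasl2 by 1.27, Rsad2 by 1.11, Bst2 by 1.00, Ifit3 by 0.85 and Irf7 by 0.73. The Fc receptor gene Fcgr1 differed by 1.19, the epithelial transcription factor gene Elf5 by 1.00, Car2 by 0.71 and the defensin gene Defb3 by 0.37. At 50 d Elf5 and Sun5 turned direction from Cy5 alone. On the other side, Lce1b differed by -1.90, Sun5 by -1.68, Lce1c by -1.57, the bicarbonate transporter gene Slc4a8 by -0.95 and Dgat2, a triglyceride synthesis enzyme, by -0.47. Lce1b, Lce1c and Dgat2 had saturated spots. A second Lce1c probe gave -0.64, 0.04 and 0.41 at 50 d with no named treatment, clp and tpa, so its place among these genes depended on the probe.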

How the results depend on the processing

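The 0 calls for genotype at 50 d held under every alternative, with 149 to 1466 features at an unadjusted p under 0.05. For 50 d against 90 d there were 2 calls under median centring. Features 2-fold higher in all pairs numbered 2 (processed signals) and 1 (Cy5 alone), and from 0 to 4 with a pair of arrays left out; those 2-fold lower numbered 26 (processed signals), 3 (offset 0) and 1 (median centring), and from 0 to 33 with a pair left out. The fitted interferon median of 0.28 was 0.54 with processed signals and 0.55 under median centring. Median centring, which shifts all features, gave receptors a fitted median of 0.15. It gave, with no named treatment, interferon 1.05, muscle 0.79, melanocyte 0.60, cell cycle 1.31, stressed epidermis 1.54, receptors 0.75 and BMP antagonists 0.75. In the clp pair it gave interferon 0.10, melanocyte -1.20, cell cycle -1.16 and receptors -0.53. Melanocyte genes with no named treatment were at 0.33 from Cy5 alone. Cy5 alone reversed the fitted Zmiz2 (0.13), Sun5 (0.90), Syne4 (1.18), Ambn (-0.17), Bard1 (0.48), Elf5 (-0.077) and Chrd (0.012), and the pair differences of Il6 (-1.09), Pifo (-0.20), Tdrd5 (-0.23), Slc35f3 (-0.81) and Bmpr2 (0.27). Processed signals put Bmpr2 at 0.019 and median centring Selenov at 0.042 with no named treatment. The fitted Rgma was at 0.12 with processed signals, 0.045 under median centring, 0.10 with quantile normalization and 0.26 from Cy5 alone. The causes were not tested. Eng's fitted difference ranged from -0.17 to -1.09 with a pair left out. Saturated hair and muscle spots limit the size of their differences.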
